A study of Mus musculus with 2 samples.

Results

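Runx1 binding at the antigen receptor recombination loci was examined in CD4+CD8+ double-positive (DP) thymocytes, using the Runx1 peaks deposited for these cells. The genes considered were Rag1, Rag2, Dntt, Ptcra and Dad1, 5 of the 37273 genes of the GENCODE annotation of NCBIM37 (mm9), with Dad1 standing for the adjoining T-cell receptor alpha (TCRα) enhancer region. A Runx1 peak was assigned to a gene when its centre lay in the gene body or within 100 kb of it on either side. By this rule, 8 of the 3531 Runx1 peaks were assigned. Both groups of the study are DP thymocytes sorted from the thymus of C57BL/6 mice: chromatin immunoprecipitated with 10 μg of anti-Runx1 antibody from 10000000 cells (Runx1 ChIP), and chromatin taken without antibody (input), with 1 library each. The catalogue number of the antibody in the labels is not that of the paper, which lists a single number for its Runx1 and H3K79me2 antibodies, and this difference could not be settled from the files. No spread between replicates could therefore be computed, and every value below is a description of single libraries. Mice of the study were 4 to 6 weeks old, and no treatment or genetic change is named for these cells. The files hold peaks and no expression, so that the DP label was not checked against markers, and binding in few cells cannot be told apart from weak binding in many.

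V(D)J recombination joins the variable, diversity and joining segments of the antigen receptor genes. Rag1 and Rag2 encode the recombinase that cuts at the signal sequences, Dntt encodes the terminal transferase (TdT) that adds nucleotides without a template at the joints, and Ptcra encodes the pre-TCRα chain that pairs with a rearranged TCRβ chain before the alpha locus is recombined. In DP thymocytes, the recombinase acts on the TCRα locus, whose enhancer lies downstream of the constant segment Trac, next to Dad1, a gene for a subunit of the oligosaccharyltransferase. Runx1 belongs to the RUNX family, which binds DNA as a heterodimer with CBFβ, and RUNX sites adjoining ETS sites are a known feature of T-cell receptor enhancers.

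The sequences of the 4 peaks with the highest scores are shown first, since they carry the main result, followed by the peak nearest to Ptcra, a peak of low score. They are written 5′ to 3′ on the plus strand of NCBIM37, and capitals mark the RUNX motif TGTGGT, which reads ACCACA where it lies on the minus strand.
TCRα peak with the highest score, chr14:54847209-54847395: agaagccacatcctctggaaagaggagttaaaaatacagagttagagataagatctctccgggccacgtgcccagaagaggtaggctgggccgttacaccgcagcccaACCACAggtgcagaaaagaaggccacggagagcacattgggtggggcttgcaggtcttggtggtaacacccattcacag
TCRα peak nearest to Dad1, chr14:54853065-54853251: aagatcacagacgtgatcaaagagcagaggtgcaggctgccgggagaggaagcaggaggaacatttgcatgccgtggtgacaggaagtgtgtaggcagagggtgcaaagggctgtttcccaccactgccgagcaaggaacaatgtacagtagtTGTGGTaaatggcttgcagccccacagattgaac
Far upstream of Rag2, chr2:101391577-101391763: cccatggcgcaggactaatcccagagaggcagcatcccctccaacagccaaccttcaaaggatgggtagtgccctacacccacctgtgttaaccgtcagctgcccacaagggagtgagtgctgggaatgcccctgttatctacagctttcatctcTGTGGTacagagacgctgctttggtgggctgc
5′ end of Rag1, chr2:101489673-101489859: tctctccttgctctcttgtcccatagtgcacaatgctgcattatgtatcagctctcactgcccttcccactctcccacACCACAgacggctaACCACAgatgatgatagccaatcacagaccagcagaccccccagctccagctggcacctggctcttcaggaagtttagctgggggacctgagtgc
Intron of Cnpy3, downstream of Ptcra, chr17:46888513-46888699: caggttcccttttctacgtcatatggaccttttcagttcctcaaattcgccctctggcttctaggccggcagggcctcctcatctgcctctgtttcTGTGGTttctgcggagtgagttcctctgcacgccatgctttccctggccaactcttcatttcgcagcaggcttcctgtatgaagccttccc
The motif appears once in each, except at the 5′ end of Rag1, where it appears 2 times.

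**Figure D1:**
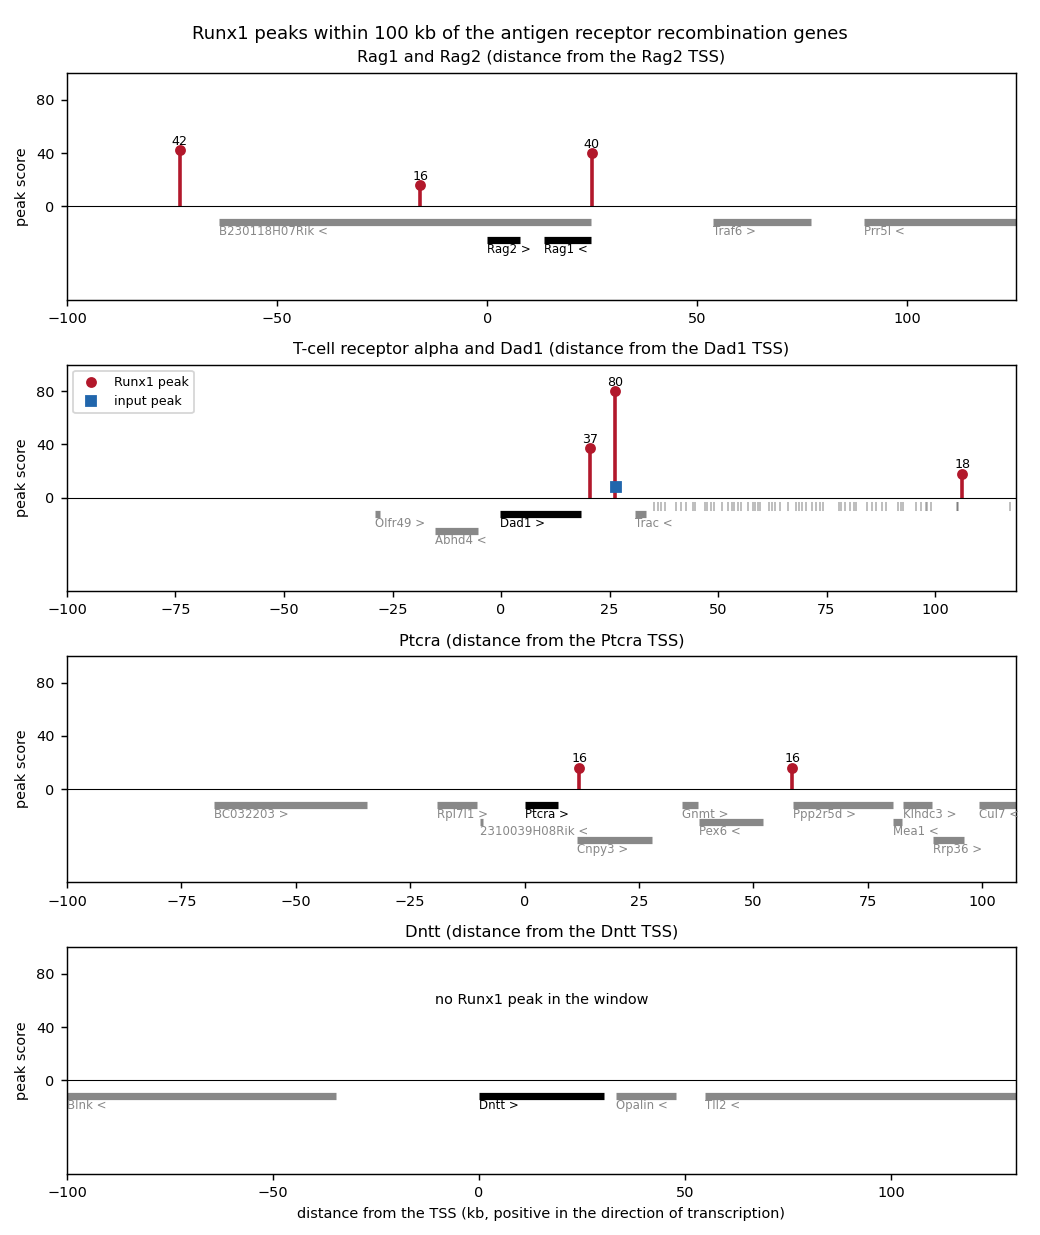
Runx1 peaks (red) in the windows of the genes, with the score of each peak on the y axis and the distance from the TSS in kb on the x axis, positive in the direction of transcription of the gene named in the panel title. Members are in black, other genes in grey, > and < mark genes on the same or the opposite strand, short grey marks are receptor gene segments, and the blue square is the input peak. Peaks with scores of 37 to 80 lie at the Rag and TCRα loci, which also hold peaks with scores of 16 and 18, respectively. Those near Ptcra have a score of 16, and the Dntt window is empty.

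The score is a whole number that the authors deposited for each peak and whose meaning the files do not name. In the Runx1 list it ranged from 14 to 129, with a median of 18 and an upper quartile of 23, and it was used only to rank peaks within that list. The 8 peaks had a median score of 27.5. Of these, 4 were at or above the upper quartile, and 3 had a score of 16, which is shared by 1508 peaks, or 42.7% of the list. The strongest was thus at the TCRα locus, followed by the pair of strong peaks at the Rag locus.

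**Figure D2:**
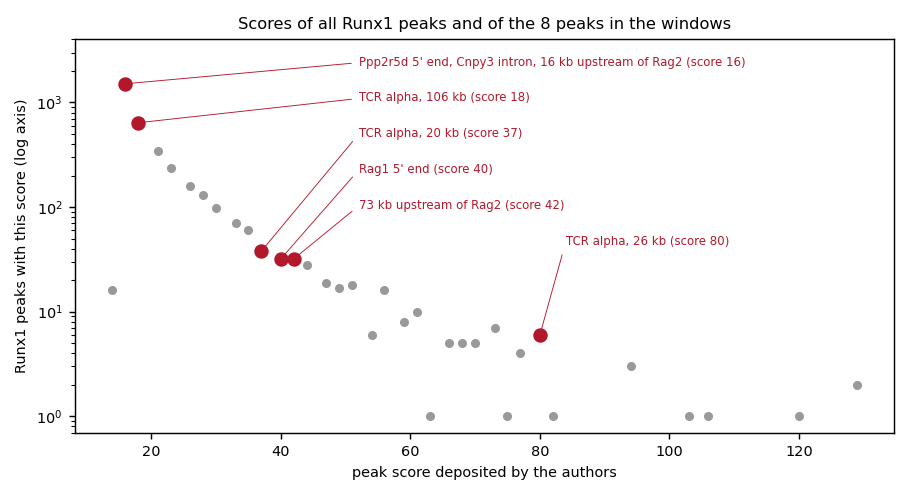
Number of Runx1 peaks with each score (y axis, log scale) against the score (x axis); each point is a score, and red points are scores held by peaks in the windows, named beside them. The TCRα peak with a score of 80 stands near the upper end of the list, and 3 of the 8 peaks share the most frequent score, 16.

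Rag1 and Rag2 lie tail to tail on chromosome 2, with 24783 bp between their TSSs, and share the same 3 Runx1 peaks. Rag1 (ENSMUSG00000061311, 101478439 to 101489658, minus strand) is the subunit that carries the catalytic site, and Rag2 (ENSMUSG00000032864, 101464875 to 101472685, plus strand) is its partner. One peak lay at the 5′ end of Rag1, with a score of 40 and its centre 108 bp upstream of the TSS. Of the 22367 protein-coding genes, 230, or 1.03%, had a nearer peak, and 2.79% had one within 1 kb of the TSS, as Rag1 alone had among the 5 genes. Of the whole list, 93.5% of the peaks had a lower score. The body of B230118H07Rik, another gene annotated on the strand of Rag1, also begins here, 77 bp from the peak centre.
The 2 copies of the motif at the 5′ end of Rag1 lay at 101489751 to 101489756 and 101489765 to 101489770, both reading TGTGGT in the direction of Rag1 transcription, and the second spans the peak centre. Only 4.64% of all Runx1 peaks had 2 or more copies within 100 bp of the centre. The whole peak, 187 bp, lay by its letters within the promoter that RefSeq gives for Rag1 (GRCm38.p6, 250 bases before to 50 after the TSS), where the copies begin 81 and 67 bp upstream of the RefSeq TSS. Of the 32851 RefSeq promoters of this length, 16.8% held TGTGGT on either strand and 1.81% held it 2 or more times. The promoters of Rag2, Dntt, Ptcra and Dad1 did not hold these letters.

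The strongest peak of the Rag locus, with a score of 42, lay far from both genes. Its centre was 73205 bp upstream of the Rag2 TSS and 97988 bp downstream of the Rag1 TSS, between genes and beyond the end of B230118H07Rik, a gene that spans both Rag genes in the annotation. A regulatory region far upstream of Rag2, named the anti-silencer element, is known to act on both genes in DP thymocytes, but its position was not among the annotations used here. This peak held a single TGTGGT on the plus strand, at 101391732 to 101391737, 62 to 67 bp from the centre. It also held a GATA motif (AGATAA), which is found in 6.34% of all Runx1 peaks, and the E-box letters CAGCTG and CACCTG, the kind of site bound by E proteins, found in 21.0% and 26.1%, respectively. The TCF/LEF core CTTTG, the CRE core TGACG and the ETS core AGGAT were found in it as well. CAGCTG was also in the other peaks of the Rag locus.
The third peak, with a score of 16, lay in an intron of B230118H07Rik, 15959 bp upstream of the Rag2 TSS, and had no TGTGGT within 100 bp of its centre. It is the peak nearest to the Rag2 TSS. When only peaks with a score above the median of the list were considered, the nearest was that at the 5′ end of Rag1, at 24891 bp. No input peak lay near the locus, the nearest being 2103376 bp from the Rag1 TSS.

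At the TCRα locus, Dad1 (ENSMUSG00000022174, chromosome 14, 54855154 to 54873779, minus strand) had 3 peaks in its window, all on the side of Trac. The strongest had a score of 80, and its centre lay between genes, 4530 bp beyond the end of Trac (54840196 to 54842772, plus strand), the constant segment, and 7852 bp from Dad1. Of the 3531 peaks, 9 had a higher score, and 15, or 0.425%, had at least this one. It held TGTGGT on the minus strand at 54847317 to 54847322, together with the related letters TGCGGT, also on the minus strand, at 54847306 to 54847311, which are found in 9.69% of all Runx1 peaks.
A second peak, with a score of 37, lay 5856 bp away from it (centre to centre) and 1996 bp from the end of Dad1. A neighbour at this distance or nearer was found for 9.4% of all Runx1 peaks, and one within 10 kb for 13.7%. Its TGTGGT lay on the plus strand at 54853218 to 54853223, 60 to 65 bp from the centre, and the ETS core AGGAA, found in 58.7% of all Runx1 peaks, was repeated along it. With centres 26287 and 20431 bp downstream of the Dad1 TSS, both peaks lay in the interval between Trac and Dad1. The promoter of Dad1 itself had no peak.
The third peak, with a score of 18, lay beyond the TCRα joining segments, 978 bp from Trdv5, a variable segment of TCRδ, 72837 bp from Trac and 106230 bp downstream of the Dad1 TSS (54767266 to 54767452), with TGTGGT on the minus strand at 54767348 to 54767353. It was also the peak closest to a border of its window, 12205 bp inside.

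The only input peak in any of the windows lay at the strongest TCRα peak. It had a score of 8 in the input list, in which scores ranged from 6 to 159 with a median of 10, and its position was 54847111 to 54847281. It overlapped 73 bp, or 39.0%, of the Runx1 peak, and the centres were 106 bp apart. The part covered by input did not include TGTGGT. Of all Runx1 peaks, 35, or 0.991% (exact Clopper-Pearson 95% confidence interval 0.691 to 1.38%), were overlapped by an input peak, but among the 15 peaks with a score of 80 or more, 6 were (40%; 16.3 to 67.7%). The part of input enrichment in the score of 80 was not tested. The nearby peak with a score of 37 had no overlapping input peak.

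The sequences of the TCRα peaks were also read for an ETS core next to the RUNX letters, a search chosen after the sequences had been seen. The pattern was the ETS core AGGAT sharing its last base with TGTGGT or with TGTGGC. In the strongest peak, AGGAT ran into TGTGGC on the minus strand at 54847213 to 54847222, within the part that the input peak covers. In the peak with a score of 18, AGGAT ran into TGTGGT on the minus strand at 54767348 to 54767357. The joined letters were found within 100 bp of the centre of 59 of the 3531 Runx1 peaks, or 1.67%, and at a distance of 1 kb, over an equal width, for 11, or 0.312%. Over the windows of the 5 genes they occurred 8 times, of which 2 lay at peaks, both at the TCRα locus.

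Ptcra (ENSMUSG00000036858, chromosome 17, 46893176 to 46900542, minus strand) had 2 peaks in its window, both with a score of 16 and both downstream of the gene, at the 5′ ends of neighbours. The nearer had its centre 11936 bp from the Ptcra TSS, in an intron of Cnpy3, 557 bp downstream of the TSS of this gene for a chaperone of Toll-like receptors, and held TGTGGT at 46888609 to 46888614, 3 to 8 bp from the centre. The other lay 58498 bp from the Ptcra TSS and 93 bp upstream of the TSS of Ppp2r5d (46841951 to 46842137), which encodes a regulatory subunit of protein phosphatase 2A, and held no TGTGGT. Both also lay in introns of Gm16736, a long non-coding RNA gene that runs across the locus on the other strand. With only peaks above the median score, the nearest to Ptcra was one with a score of 30, 126648 bp upstream of the TSS and 26648 bp outside the window. It was the peak closest to any window from outside.

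Dntt (ENSMUSG00000025014, chromosome 19, 41103765 to 41134013, plus strand) had no Runx1 peak in its window of 230249 bp, nor in that of 200 kb on each side. The nearest peak, with a score of 16, had its centre 419502 bp upstream of the TSS, and the next on the other side, with a score of 23, lay 845171 bp downstream. A nearer peak was found for 73% of protein-coding genes, whose median distance was 181908 bp. TGTGGT occurred 154 times in the Dntt window, or 0.669 times per kb, as compared with 0.755 for Rag2, 0.795 for Rag1, 0.732 for Dad1 and 0.969 for Ptcra. The letters were thus present at Dntt without a peak, as they were at most places in the other windows. The depth of the library is unknown, so that a missing peak says only that none was called.

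**Figure D3:**
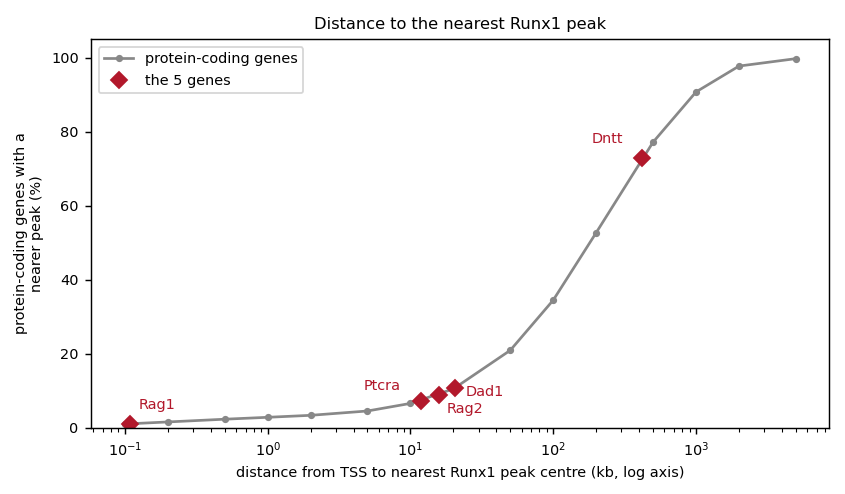
Share of the 22367 protein-coding genes with a nearer Runx1 peak (y axis, %) against the distance from the TSS to the nearest peak centre (x axis, kb, log scale); the grey line joins the shares at fixed distances and red diamonds are the 5 genes. Rag1 lies at 108 bp, Ptcra, Rag2 and Dad1 between 11936 and 20431 bp, and Dntt at 419502 bp, beyond the median gene.

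Taking the genes together, 4 of the 5 had a peak in the window, whereas 38.5% of protein-coding genes did (exact Clopper-Pearson 95% confidence interval 37.9 to 39.2%), as did 34.3% of all annotated genes. These 4 had at least 2 peaks each, as 13.3% of protein-coding genes had. Rag1, Rag2 and Dad1 had 3 peaks each, and 4.2% of protein-coding genes had 3 or more. These 3 genes also had a peak at or above the upper quartile of scores, as 12.8% of protein-coding genes had. Ptcra is annotated as an immunoglobulin-type constant gene and is not among the protein-coding genes. Rag1 and Rag2 share their peaks and count as 1 locus. The genes were chosen with results of these data known, so no test was made of these counts. The merged windows covered 881026 bp and held 9.08 peaks per Mb (3.92 to 17.9, from the exact interval of the count), as compared with 1.33 per Mb in the genome. The genome figure covers all 2654.9 Mb, also far from any gene, so it is not a background of windows of the same kind. An input peak was found for 1 of the 5 genes and for 4.03% of protein-coding genes.

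The motif TGTGGT lay within 100 bp of the centre of 6 of the 8 peaks, or 75% (exact Clopper-Pearson 95% confidence interval 34.9 to 96.8%), as compared with 26.5% of all Runx1 peaks (25 to 28%) and 32.7% of those at or above the upper quartile of scores, and 23.2% of those up to the median. At a distance of 1 kb, over an equal width, it was found for 3 of the 8 and for 14.8% of all Runx1 peaks. All 4 peaks with a score of 37 or more held it, and the 2 without it, near Rag2 and at Ppp2r5d, both had a score of 16. Over the merged windows the letters occurred 690 times, of which 7 lay within 100 bp of a peak centre. The GC content of the 8 peaks ranged from 51.3 to 57.2%, with a median of 54.0% over all Runx1 peaks, and the central 32 bases occurred only 1 time in the genome for each. Intervals cover counting error over peaks or genes only. That of the 8 peaks takes them as independent, although several share a locus and the genes were chosen with results known.

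Motifs of other factors were counted in the same way. The ETS core was found as AGGAA in 3 of the 8 peaks and as AGGAT in 4, beside 58.7% and 34.9% of all Runx1 peaks. The TCF/LEF core CTTTG was found in 3, beside 45.4%, and the CRE core TGACG in 2, beside 14.6%. Each of the E-box letters CAGCTG and CACCTG was found in 3, and the GATA motif AGATAA in 2, the strongest TCRα peak and the peak far upstream of Rag2, whereas TGATAA, found in 4.45% of all Runx1 peaks, was in none. Of the RUNX variants, TGCGGT was found in 1 and TGTGGC in 2, the latter beside 21.1%. With 8 peaks, shares of this size leave wide intervals, and none of these motifs was tested.

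**Figure D4:**
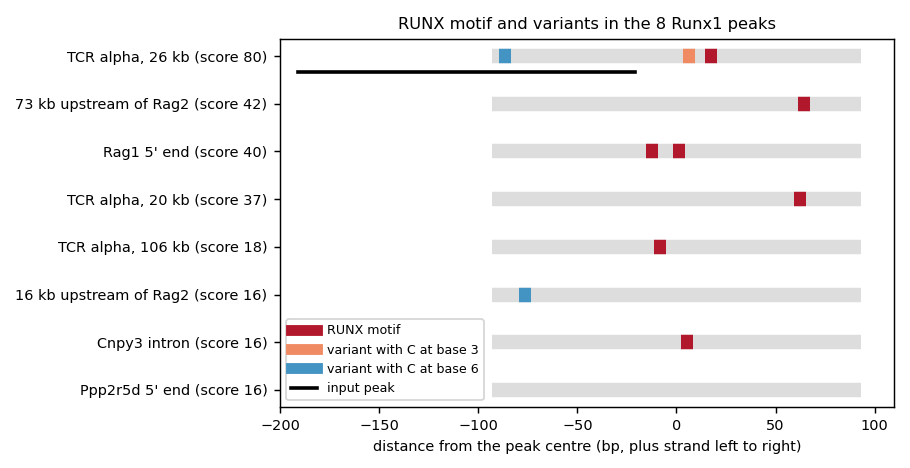
Position of the RUNX motif TGTGGT (red) and of its variants TGCGGT (orange) and TGTGGC (blue) on either strand, as the distance from the peak centre in bp on the x axis, for the 8 peaks ordered by score; grey bars are the peaks and the black line is the input peak. The motif lies within 20 bp of the centre in 4 peaks, 60 to 67 bp from it in 2, and is absent from 2.

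The other genes of the pathway were examined through 17 genes for end joining, break response and the cofactors of the recombinase. Of these, 10 had a Runx1 peak within 100 kb of the gene body, or 58.8%, beside the 38.5% of all protein-coding genes, and 5, or 29.4%, had a peak within 5 kb of it, beside 9.86% of all protein-coding genes. The list was chosen with results of these data known, and these shares were not tested. Dclre1c, which encodes the Artemis nuclease that opens the hairpins made by the recombinase, had 3 peaks in the window with a highest score of 30, and the nearest, with a score of 21, lay 172 bp upstream of its TSS. For Atm, the kinase that responds to double-strand breaks, the nearest peak had a score of 16 and lay 41 bp downstream of the TSS. Lig4 (DNA ligase IV) and Xrcc6 (Ku70) had a peak with a score of 18 at 1366 and 12462 bp, respectively, and Trp53bp1 had one with a score of 16 in its body. Of the peaks nearest to the TSSs of these genes, only that of Xrcc6 held TGTGGT. The highest scores within 5 kb of these 5 genes ranged from 16 to 30. Within 100 kb of the 17 genes the highest score was 42, at a gene without a peak within 5 kb. Over the 17 genes, the distance from the TSS to the nearest peak ranged from 41 to 3617139 bp, and 7 had no peak in the window.

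Among the constant segments of the antigen receptors, 5 of the 19 symbols searched were found in the annotation. Trac was the only one with a peak within 5 kb, the peak with a score of 80. Trbc1 and Trbc2, the constant segments of TCRβ, shared a peak with a score of 56, 7782 bp downstream of the Trbc2 start, which is named here after its value was seen. It is shown because it holds the joined ETS and RUNX letters found at the TCRα peaks with scores of 80 and 18, and not at that with a score of 37; capitals are as above.
Downstream of Trbc2, chr6:41504418-41504604: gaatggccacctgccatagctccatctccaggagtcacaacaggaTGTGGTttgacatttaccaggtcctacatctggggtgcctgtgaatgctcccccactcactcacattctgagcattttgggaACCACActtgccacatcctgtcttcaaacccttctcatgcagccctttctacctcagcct
It held TGTGGT 2 times, and the joined ETS and RUNX letters 2 times as well, with TGTGGT on the plus strand at 41504459 to 41504468 and with TGTGGC on the minus strand at 41504554 to 41504563. It was the only one of the 3531 Runx1 peaks (0.0283%) with 2 such sites within 100 bp of the centre. The pattern was chosen after sequences had been seen and the peak is shown for holding it, so this count is a description only. Igkc and Ighm, constant segments of the immunoglobulins, which are also named after their values were seen, belong to the receptor of B cells: Ighm had no peak in the window, its nearest lying 248759 bp away, and Igkc had 3, with a highest score of 23 and the nearest at 87888 bp.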

How the data were processed

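Runx1 ChIP and input were sequenced from DP thymocytes on AB SOLiD, as single libraries. What the authors deposited is a list of peaks for either library, with a score per peak, a whole number whose meaning the files do not name. HOMER and mm9 are named in the submitters' processing notes, and the aligner is not given in the sources used here. For its lymphoid transcription factors the paper reports peak calling with HOMER defaults, which included a minimum fold enrichment over input. No read counts are held, so depth and the precision of a peak are unknown.

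Peaks, counted from base 1, were placed on NCBIM37 (mm9) with its GENCODE annotation. The TSS was that of the longest transcript of the gene's own type. Motifs were counted on both strands, wholly within 100 bp of the peak centre. Shares have exact Clopper-Pearson 95% intervals (scipy 1.17.1, with pandas 2.3.3 and numpy 2.4.6 in Python 3.11.15; figures with matplotlib 3.10.9), and no test between groups was made. Counting was tested on simulated data. Promoters came from RefSeq (GRCm38.p6; 5 of 5 genes matched by symbol), and no position was moved between builds.

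Genes named were the 5 genes, those in which or nearest to whose TSS their peaks lie, and, from lists of 17 recombination and repair genes and of constant segments, those with a peak within 5 kb. Trdv5, Trbc1, Trbc2, Ighm and Igkc fall outside this rule and were chosen after their values were seen. Members and lists were chosen with earlier results of these data known. Alternatives covered the window, the minimum score, peaks overlapped by input, and the motif and its distance from the centre. FPKM were not used here.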

Additional observations from a re-analysis of the deposited data

How the results depend on the processing

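Of the values recomputed under an alternative, 34 kept to the interval of the reported value or, for counts, to within 1.5 times of it, and 16 did not. The 8 peaks became 5 with 50 kb on each side, 4 with peaks above the median score and also 4 with those at or above the upper quartile. The 4 genes with a peak became 3 with either minimum score, since Ptcra has only peaks with a score of 16. The share of protein-coding genes with a peak was 25.8% with 50 kb, 55.4% with 200 kb, 34.5% around the TSS, 17.7% above the median score and 12.8% at or above the upper quartile. The share of all Runx1 peaks with the motif was 33.6% when TGCGGT also counted, 13% with TGTGGTT, 17.2% within 50 bp, 40.7% within 250 bp, and 47.2% when both TGCGGT and TGTGGC counted, a choice made after seeing the data. For the 8 peaks these gave 75%, 50%, 50%, 75% and 87.5%. The 9.08 peaks per Mb in the windows became 10.4 with 50 kb, 5.35 with 200 kb and 7.95 without peaks that input overlaps, beside 1.33, 1.33 and 1.32 in the genome, and 4.54 with either minimum score, beside 0.515 above the median and 0.385 at or above the upper quartile. With peaks above the median score, the nearest lay 24891 bp from Rag2, 845171 bp from Dntt and 126648 bp from Ptcra. Without peaks that input overlaps, the TCRα peak with a score of 80 is lost, 7 peaks are left, and 4 genes have one. As there was a single library of each kind, no replicate could be left out. No paired analysis was possible because the groups hold 1 sample each.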
